A study of Homo sapiens with 2 samples.

Results

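The genes of the mitochondrial ribosome were followed in cultures of the human gastric cancer line NUGC4 that had received an siRNA against ANO5 (anoctamin 5, from a family of ion channels and lipid scramblases) or a negative control siRNA. Per the labels, both siRNAs had a final concentration of 20 nmol/l, were given 24 h after the cells were seeded by the same lipid-based reverse transfection, and the extracted total RNA was labelled with biotin and read on 1 expression array per group. The study's title places ANO5 in the control of cell division in this cancer. Members were taken by symbol: every gene whose name on the platform is MRPL or MRPS followed by a number, with no filter on level. This gave 74 of the 14526 named genes in the table, 47 with large subunit symbols (MRPL) and 27 with small subunit symbols (MRPS). Each had a single transcript cluster, the group of probes by which the array reads a gene.

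Mitochondrial ribosomes translate the few proteins that mitochondrial DNA encodes, all of them hydrophobic subunits of the respiratory chain and of ATP synthase. Their RNAs come from mitochondrial DNA, whereas all their proteins are encoded in the nucleus, made in the cytosol and imported. The small subunit binds the messenger RNA and reads the codons, and the large subunit joins the amino acids and lets the chain out through a tunnel towards the inner membrane. Part of the proteins descend from those of bacterial ribosomes, and the others are found only in mitochondrial ribosomes.

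Values are log2 signals as the authors deposited them, and each difference was taken as ANO5 siRNA minus control, so that a positive difference means a higher signal after ANO5 siRNA. A group is 1 array, so there is no replicate error and no p-value, and every difference compares these RNA samples alone. A member was called higher or lower where its difference reached 1.5-fold, which is 0.585 on the log2 scale. The signal of ANO5 itself was 3.67 after ANO5 siRNA and 6.83 after control siRNA, a difference of -3.16. After ANO5 siRNA just 4.68% of clusters had a signal no higher than this, and a value so near the floor cannot be told from background. Of 12 gastric and epithelial markers 10 were in the table, with signals from 4.81 to 17.37 after ANO5 siRNA and from 4.22 to 17.06 after control siRNA. EPCAM, KRT8, KRT18, KRT19, CDH1 and CLDN4 were high on both arrays, whereas the trefoil factors TFF1 (4.98 after ANO5 siRNA and 4.22 after control siRNA) and TFF3 (4.81 and 5.12) were low on both. By 1.5-fold 5 of the 10 were higher and 0 lower, beside 18.6% and 16.6% of all named genes. Beyond 2-fold were REG4 (14.02 after ANO5 siRNA and 9.72 after control siRNA), CDH17 (12.51 and 11.34) and KRT19 (16.26 and 15.24). Of 4 leukocyte markers 3 were in the table, with PTPRC at 3.49 after ANO5 siRNA and 3.68 after control siRNA, CD3E at 5.50 and 4.97, and CD68 at 7.34 and 7.66. The fibroblast genes COL1A1 and COL1A2 and the endothelial VWF lay between 4.62 and 7.92 after ANO5 siRNA and between 4.58 and 8.03 after control siRNA. The part of these shifts in the members' values was not tested. Less RNA per cell and fewer cells of a kind cannot be told apart in such bulk samples.

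As a group these genes were close to level between the arrays. Their median difference was 0.05, beside 0.03 for all named genes, and 38 members had a positive, 35 a negative and 1 a zero difference. By 1.5-fold, 3 of the 74 were higher (4.05%) and 9 were lower (12.2%). Over all named genes 18.6% were higher and 16.6% lower by 1.5-fold, together 35.2%, against 16.2% of the members. All 74 members lay in the measured range, at or above the 33rd percentile of mean level, where differences were wider than among dim genes. Among the 9126 named genes with a mean level within that of the members, 23.8% were higher and 20.7% lower. The standard deviation (SD) over the members' differences was 0.53, beside 0.95 over those 9126 genes. This SD describes how far genes lay from each other and is not an error of the comparison. No test of these shares was made, since genes of a single pair of arrays are not replicates. The lower calls depend on the scaling: after loess on the mean level, 2 members were higher (2.7%) and 16 lower (21.6%), beside 16.5% and 18.0% of all named genes. The share of lower members, which lay below that of all named genes as deposited, thus lay above it after loess. After loess no share was computed for named genes at the members' levels.

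**Figure D1:**
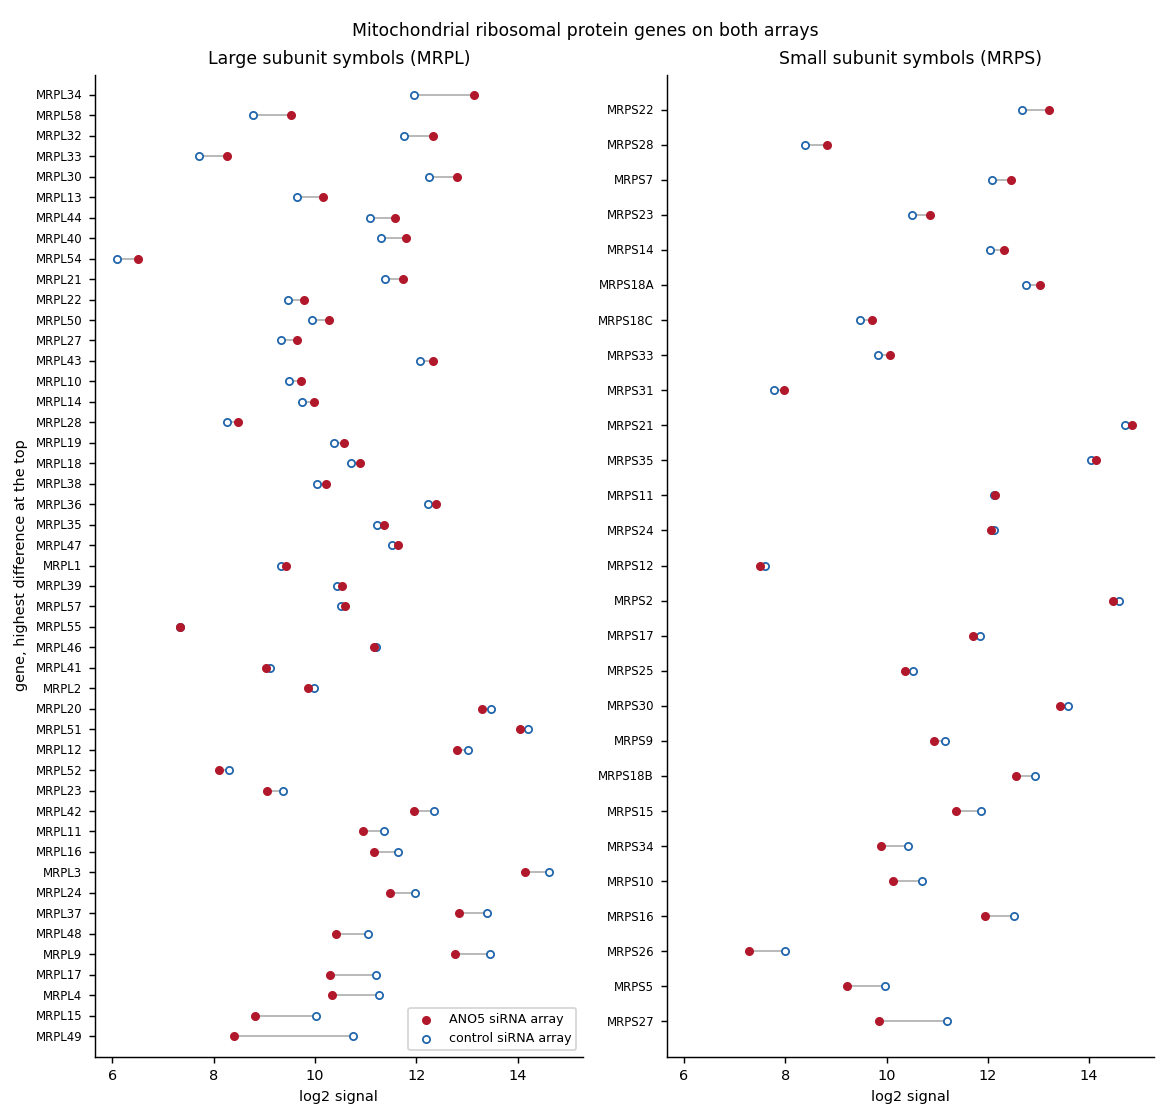
Signal of the 74 mitochondrial ribosomal protein genes (log2, horizontal axis) on the ANO5 siRNA array (filled points) and the control siRNA array (open points), with large subunit symbols on the left, small subunit symbols on the right and genes ordered by difference from highest to lowest. In most genes the points lie close together, while MRPL49 at the foot of the left panel has 8.41 after ANO5 siRNA and 10.75 after control siRNA.

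**Figure D2:**
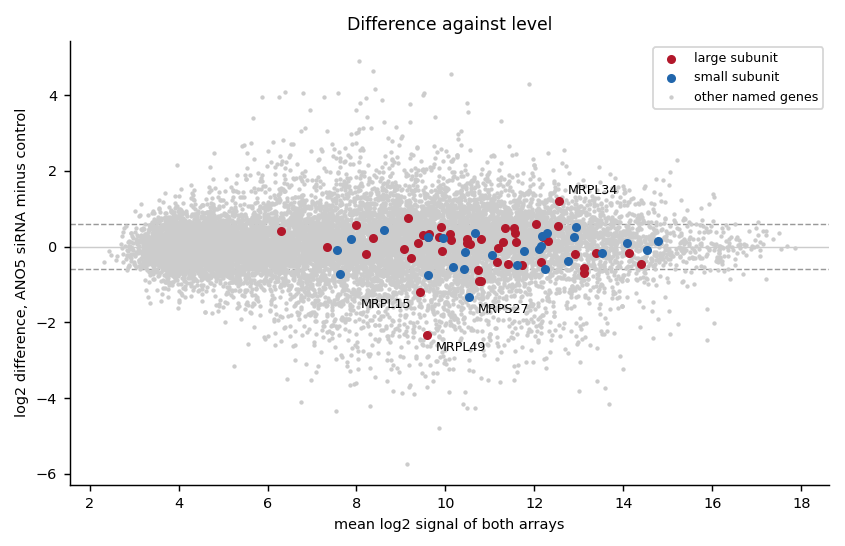
Difference between the arrays (log2, vertical axis, ANO5 siRNA minus control) against the mean signal of both arrays (log2, horizontal axis) for large subunit genes, small subunit genes and the other named genes, with dashed lines at 1.5-fold. The members lie between mean levels of 6.31 and 14.78, and MRPL49, MRPS27, MRPL15 and MRPL34 lie beyond 2-fold.

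The design of the ribosome gives a comparison between its subunits. The median difference was 0.10 for the 47 large subunit genes and -0.09 for the 27 small subunit genes, a gap of 0.19 between medians. By means the gap was 0.079, with -0.037 for the large and -0.12 for the small subunit genes. The SD over genes was 0.58 in the large and 0.44 in the small subunit, and the gap was not tested. Of the large subunit genes 3 were higher (6.38%) and 6 lower (12.8%) by 1.5-fold, and of the small subunit genes 0 were higher and 3 lower (11.1%), beside 18.6% and 16.6% of all named genes. The small subunit gene with the highest difference, MRPS22, had 13.20 after ANO5 siRNA and 12.68 after control siRNA, a difference of 0.52 that did not reach 1.5-fold. Of the proteins named for the small subunit, MRPS18A and MRPS30 sit in the large subunit in structures of the mammalian mitochondrial ribosome. Counting both there gave medians of 0.10 for 49 large and -0.09 for 25 small subunit genes.

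**Figure D3:**
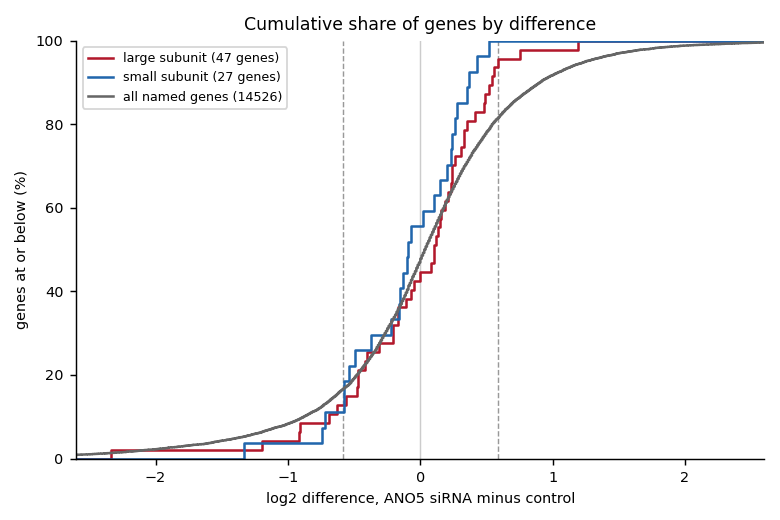
Cumulative share of genes (vertical axis, %) by their difference between the arrays (log2, horizontal axis, ANO5 siRNA minus control) for 47 large subunit genes, 27 small subunit genes and all 14526 named genes, with dashed lines at 1.5-fold. The subunit curves cross the middle at 0.10 and -0.09 and run steeper than that of all named genes.

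The steepest member was MRPL49, a protein of the large subunit that bacteria lack. Its signal was 8.41 after ANO5 siRNA and 10.75 after control siRNA, a difference of -2.34 or 5.06-fold. The value after ANO5 siRNA still lay at or above 56.6% of the clusters on its array, so the probe was not among the dim ones there. MRPS27, a pentatricopeptide repeat protein of the small subunit that binds mitochondrial RNA, had 9.86 after ANO5 siRNA and 11.19 after control siRNA (2.51-fold lower). MRPL15, the homologue of bacterial L15, had 8.82 after ANO5 siRNA and 10.02 after control siRNA (2.3-fold lower). These 3 were the members lower by 2-fold or more, which is 4.05% of the members beside 8.35% of all named genes. Together with the single member higher by 2-fold they make 5.41% of the members, beside 16.7% of all named genes beyond 2-fold. MRPL49 stood apart from the next member (-2.34 against -1.33 for MRPS27), and the other lower members followed in smaller steps.

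The remaining lower members were spread over both subunits. MRPL4, the homologue of bacterial L4, a protein that lines the exit tunnel, had 10.34 after ANO5 siRNA and 11.26 after control siRNA (1.89-fold lower). MRPL17, the homologue of L17, which sits near the tunnel exit in bacteria, had 10.30 after ANO5 siRNA and 11.21 after control siRNA (1.88-fold lower). MRPL9, the homologue of L9 at the base of a mobile stalk, had 12.76 after ANO5 siRNA and 13.45 after control siRNA (1.61-fold lower). All 3 are relatives of bacterial proteins. MRPL48, of the central protuberance on top of the large subunit, had 10.42 after ANO5 siRNA and 11.05 after control siRNA (1.55-fold lower). In the small subunit MRPS5, the homologue of S5, which helps to form the entry for messenger RNA, had 9.23 after ANO5 siRNA and 9.97 after control siRNA (1.67-fold lower). MRPS26, which bacteria lack, had 7.28 after ANO5 siRNA and 8.0 after control siRNA (1.65-fold lower). The value of MRPS26 after ANO5 siRNA lay below the array's median of 7.68, while those of the other 8 lower members lay above it.

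Higher by 1.5-fold were 3 genes, all of the large subunit. MRPL34, the homologue of bacterial L34, had 13.15 after ANO5 siRNA and 11.96 after control siRNA (2.28-fold higher), and was the only member higher by 2-fold, 1.35% of the members beside 8.33% of all named genes. MRPL58, also known as ICT1, a peptidyl-tRNA hydrolase that frees stalled ribosomes and is built into the large subunit, had 9.53 after ANO5 siRNA and 8.78 after control siRNA (1.68-fold higher). MRPL32, the homologue of L32, had 12.34 after ANO5 siRNA and 11.75 after control siRNA (1.51-fold higher). MRPL32 thus lies next to the threshold, and it did not reach it under any of the other 3 scalings (0.46 to 0.57). In mouse and yeast MRPL32 is trimmed by the m-AAA protease before it joins the ribosome. The human subunits of that protease differed by 0.49 (AFG3L2) and 0.55 (SPG7), both within 1.5-fold.

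Near the threshold the order of the genes has no break. MRPS10 (10.12 after ANO5 siRNA and 10.70 after control siRNA) and MRPS16 (11.94 and 12.52), both with a difference of -0.58, stood just short of it, as did MRPL37 (-0.56) and MRPS34 (-0.54). On the other side MRPL33 (0.56), MRPL30 (0.54), MRPS22 (0.52) and MRPL13 (0.52) stood just short of it. The genes with the smallest differences were MRPL55, at 7.33 on both arrays, MRPS11 (0.02), MRPL46 (-0.05), MRPL41 (-0.07) and MRPS24 (-0.07).

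The members were next read by their place in the ribosome. At the peptidyl transferase centre, where peptide bonds form, MRPL3 (14.15 after ANO5 siRNA and 14.62 after control siRNA) and MRPL16 (11.17 and 11.64) each differed by -0.47. MRPL2 (9.87 after ANO5 siRNA and 9.98 after control siRNA) differed by -0.11, and MRPL27 (9.65 and 9.34) by 0.31. None of the 4 reached 1.5-fold. Of 6 proteins listed at the tunnel exit, 5 were in the table. There MRPL17 was lower, while MRPL24 (-0.48), MRPL23 (-0.31), MRPL47 (0.12) and MRPL22 (0.33) stayed within 1.5-fold. On the stalk that recruits translation factors, MRPL12, which also binds the mitochondrial RNA polymerase in human cells, had 12.81 after ANO5 siRNA and 13.02 after control siRNA (-0.21). Its partners MRPL11 and MRPL10 differed by -0.42 and 0.24. Of 4 proteins listed for this stalk, these 3 were in the table. MRPL1, of the stalk at the exit site for transfer RNA, had 9.43 after ANO5 siRNA and 9.33 after control siRNA (0.10). In the central protuberance MRPL46 (-0.05), MRPL38 (0.16), MRPL18 (0.19) and MRPL40 (0.48) stood on either side of 0 beside the lower MRPL48.

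In the small subunit, MRPS12, which lies at the decoding centre, had 7.51 after ANO5 siRNA and 7.60 after control siRNA (-0.09). The relatives of bacterial head proteins, MRPS10 (-0.58), MRPS9 (-0.22), MRPS24 (-0.07), MRPS14 (0.28) and MRPS7 (0.37), had a median of -0.07 and none reached 1.5-fold. MRPS7, a protein that binds the ribosomal RNA early in assembly in bacteria, had 12.46 after ANO5 siRNA and 12.09 after control siRNA. Of 10 listed relatives of body and platform proteins, 9 were in the table. Among these, MRPS5 was lower and the other 8 lay between -0.58 (MRPS16) and 0.24 (MRPS18C). MRPS2 had 14.48 after ANO5 siRNA and 14.58 after control siRNA (-0.10). The 3 genes that share the name MRPS18 differed by 0.26 (MRPS18A), -0.37 (MRPS18B) and 0.24 (MRPS18C). Although all 3 share that name, the hand-set grouping by descent counted only MRPS18C as a relative of bacterial proteins. That MRPS18A and MRPS18B were counted as mitochondria-specific does not show a separate descent.

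The members were also grouped by descent, with a hand-set list that put MRPS18A and MRPS18B in the mitochondria-specific class. The 43 relatives of bacterial proteins had a median difference of 0.02 with 2 higher (4.65%) and 5 lower (11.6%), and the 29 genes of mitochondria-specific proteins a median of 0.08 with 1 higher (3.45%) and 4 lower (13.8%). Of all named genes 18.6% were higher and 16.6% lower, and the difference between the classes was not tested. MRPL55 and MRPS28 were not classed. By level, the 24 members with the lowest mean signal had 1 higher and 4 lower, the middle 25 had 0 higher and 4 lower, and the 25 with the highest signal had 2 higher and 1 lower.

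A further grouping was by chromosome, as read from the cluster identifiers, chosen after the values were seen. On chromosome 11, 6 of 7 members had a negative difference: MRPL49, MRPL17, MRPL48, MRPL16, MRPL11 and MRPL23, with MRPL21 (0.35) the exception. Their median was -0.47, beside 0.025 for the 926 named genes on that chromosome, of which 444 had a negative difference. On chromosome 17, 6 of 7 had a positive difference: MRPL58, MRPS7, MRPS23 (0.35), MRPL27, MRPL10 and MRPL38, with MRPL12 the exception. Their median was 0.31, beside 0.08 for the 874 named genes there, of which 483 had a positive difference. These 2 chromosomes were picked for this pattern out of 9 that hold at least 4 members, and the counts are a description of it. On chromosome 1, with 8 members, 5 differences were negative, 2 positive and 1 zero.

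Other genes of mitochondrial translation were read beside the members. Of 6 further proteins of the mitochondrial ribosome with other symbols, 5 were in the table, and 0 of them reached 1.5-fold. DAP3, a GTP-binding protein of the small subunit, had 12.80 after ANO5 siRNA and 12.37 after control siRNA (0.43), and PTCD3, another pentatricopeptide repeat protein there, had 12.43 and 12.71 (-0.28). Of 25 assembly factors in the table, 1 was higher (4.0%) and 3 were lower (12%), with a median of 0.02, beside 18.6% and 16.6% of all named genes. MTERF4, which brings an RNA methyltransferase to the large subunit, was 1.72-fold higher. METTL17, which acts on the small subunit, was 2.19-fold lower, the RNA endonuclease YBEY 1.89-fold lower and the RNA helicase DDX28 1.56-fold lower.

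Of 14 translation factors in the table, 4 were higher (28.6%) and 2 lower (14.3%), with a median of 0.085. For all named genes these shares were 18.6% and 16.6%. MTRF1L, a release factor that ends translation at stop codons, had 9.31 after ANO5 siRNA and 8.02 after control siRNA (2.45-fold higher). TACO1, a translational activator of a cytochrome oxidase subunit, was 1.69-fold higher and MTFMT, which formylates the initiator transfer RNA, 1.6-fold higher. SLIRP, an RNA-binding partner of LRPPRC, was 1.79-fold lower and the release factor relative MTRF1 1.66-fold lower, whereas LRPPRC itself differed by 0.08. Of 6 genes of mitochondrial transcription, 2 were higher and 2 lower (33.3% each), beside the same 18.6% and 16.6% of all named genes. TFAM, which packages mitochondrial DNA and starts its transcription, had 12.27 after ANO5 siRNA and 13.61 after control siRNA (2.53-fold lower), and TEFM, the elongation factor, was 1.99-fold lower. MTERF2 and MTERF1 were 1.79-fold and 1.55-fold higher, while POLRMT, the polymerase, differed by -0.25. The list thus went both ways, around a median of -0.05.

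Of the 9 nuclear regulators of mitochondrial genes in the table, 4 were lower (44.4%), 1 was higher (11.1%) and the median was -0.55. Among all named genes 16.6% were lower and 18.6% higher by 1.5-fold. MYC, a growth factor-induced transcription factor, had 8.88 after ANO5 siRNA and 10.85 after control siRNA (3.92-fold lower). GABPB2, a partner of the ETS factor GABPA, was 2.33-fold lower, and PPRC1, a coactivator related to PGC-1, 2.3-fold lower. The coactivator PPARGC1B was 2.23-fold lower at low signals of 4.62 after ANO5 siRNA and 5.78 after control siRNA. ESRRA, a nuclear receptor, was 2.36-fold higher. NRF1 (-0.53) and GABPA (-0.55), factors known to bind promoters of mitochondrial ribosomal protein genes, stood just short of 1.5-fold lower. The calls in the related lists were not followed under the other scalings. The members' median of 0.05 stood beside -0.55 for these regulators, 0.15 for 31 subunits of respiratory complex I and -0.07 for 47 cytosolic ribosomal protein genes. The cytosolic list was brighter, with a median level of 16.14 beside 10.80 for the members. The part of level in these differences was not tested. Of the complex I genes 6 were higher (19.4%) and 1 lower (3.23%) by 1.5-fold, and of the cytosolic ribosomal protein genes 0 were higher and 2 lower (4.26%). The share of higher complex I genes is thus near the 18.6% of all named genes.

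**Figure D4:**
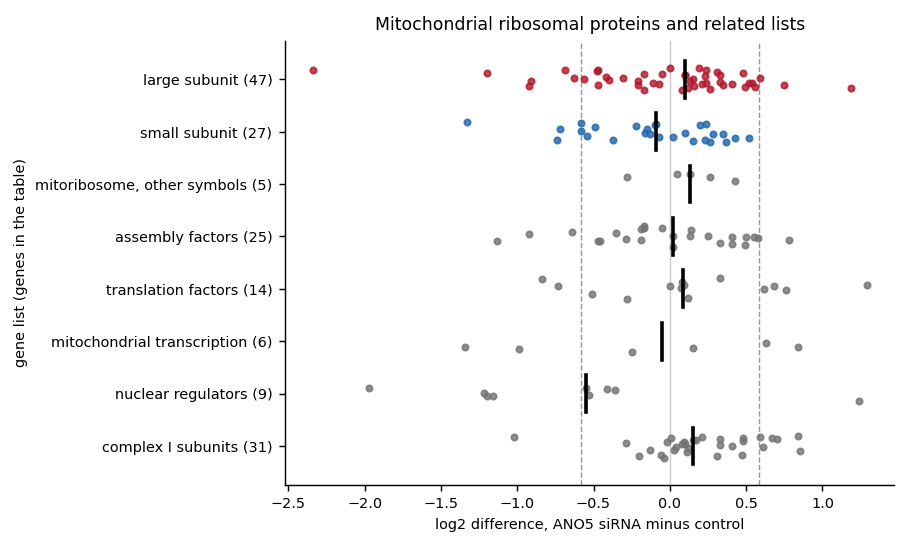
Difference of each gene between the arrays (log2, horizontal axis, ANO5 siRNA minus control) for the large and small subunit members and 6 related gene lists, 1 point per gene, with black bars at the medians and dashed lines at 1.5-fold. The nuclear regulators have a median of -0.55, and the other 7 rows have medians from -0.09 to 0.15.

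Several members start head to head with another gene, so that both are read outwards from a shared stretch of DNA. RefSeq promoter windows (GRCh38.p14, 250 bases before to 50 after a gene's start) were available here for 66 of the 74 members. Within 1000 bases, 26 members had a neighbour that starts in the opposite direction, and for 16 pairs the table held both genes. The windows of 4 members were chosen after the values were seen, as examples in which the neighbour's start lies inside the window and 1 gene of the pair passed 1.5-fold lower while the other did not, and other pairs with such a difference are given by their values alone. They run 5′ to 3′ on the member's strand, and capitals mark the bases between the start of the neighbour and the start of the member.
MRPL49 (chr11:65121933-65122232, plus strand): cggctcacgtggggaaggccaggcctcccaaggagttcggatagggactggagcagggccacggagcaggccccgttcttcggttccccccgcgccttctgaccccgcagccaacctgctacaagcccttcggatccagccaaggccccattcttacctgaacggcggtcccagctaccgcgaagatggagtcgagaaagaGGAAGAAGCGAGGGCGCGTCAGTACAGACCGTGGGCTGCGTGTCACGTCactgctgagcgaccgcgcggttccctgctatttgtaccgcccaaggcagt
MRPS27 (chr5:72320191-72320490, minus strand): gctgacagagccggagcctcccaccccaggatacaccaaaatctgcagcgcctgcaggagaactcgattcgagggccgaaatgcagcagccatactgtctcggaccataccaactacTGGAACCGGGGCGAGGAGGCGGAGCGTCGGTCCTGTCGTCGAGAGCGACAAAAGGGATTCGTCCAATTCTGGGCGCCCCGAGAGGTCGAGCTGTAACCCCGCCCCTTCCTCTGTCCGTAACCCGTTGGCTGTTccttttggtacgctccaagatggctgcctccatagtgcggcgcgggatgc
MRPL57 (chr13:21176408-21176707, plus strand): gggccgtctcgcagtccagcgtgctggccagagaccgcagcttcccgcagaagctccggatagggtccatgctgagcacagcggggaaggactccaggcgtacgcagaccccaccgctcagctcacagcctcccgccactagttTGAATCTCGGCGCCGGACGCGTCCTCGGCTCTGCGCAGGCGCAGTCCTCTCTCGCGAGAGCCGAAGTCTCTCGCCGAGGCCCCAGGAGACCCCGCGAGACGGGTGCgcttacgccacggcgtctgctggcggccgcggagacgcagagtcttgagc
MRPL27 (chr17:50373135-50373434, minus strand): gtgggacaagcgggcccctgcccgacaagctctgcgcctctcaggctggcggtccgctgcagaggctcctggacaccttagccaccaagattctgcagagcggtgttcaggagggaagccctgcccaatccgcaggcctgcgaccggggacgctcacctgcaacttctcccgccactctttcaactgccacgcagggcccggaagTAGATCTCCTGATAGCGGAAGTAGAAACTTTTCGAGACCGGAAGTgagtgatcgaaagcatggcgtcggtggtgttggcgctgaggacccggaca

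MRPL49 and FAU, a cytosolic ribosomal protein gene, start 49 bases apart. FAU had 13.53 after ANO5 siRNA and 13.79 after control siRNA (-0.26), beside the difference of -2.34 for MRPL49. MRPS27 starts 133 bases from PTCD2, a gene of mitochondrial RNA processing, which differed by -0.39 beside -1.33 for MRPS27. In both pairs the member lay beyond 2-fold and its neighbour within 1.5-fold. MRPL57, a small protein of the large subunit, starts 106 bases from SKA3, which encodes a kinetochore protein of mitosis. SKA3 had 8.66 after ANO5 siRNA and 11.04 after control siRNA (-2.38), whereas MRPL57 had 10.60 and 10.52 (0.08). MRPL27 starts 45 bases from EME1, which encodes a subunit of a DNA repair endonuclease, and EME1 differed by -0.88 beside 0.31 for MRPL27. A further pair, 840 bases apart, was MRPL51 (-0.17) with the condensin gene NCAPD2, at 9.85 after ANO5 siRNA and 12.64 after control siRNA (-2.79). In 2 pairs the neighbour was higher by 1.5-fold. PIERCE1, 96 bases from MRPS2, had 10.28 after ANO5 siRNA and 9.36 after control siRNA (0.92, beside -0.10 for MRPS2), and TMEM63B, 240 bases from MRPL14, had 10.22 and 9.21 (1.01, beside 0.24 for MRPL14). In all, 5 neighbours were lower by 1.5-fold, the others being CYB5RL (-0.87, beside -0.56 for MRPL37) and APBA3 (-0.89, beside 0.41 for MRPL54). The shares over all named genes were 16.6% lower and 18.6% higher. MRPL32, itself higher, stood beside PSMA2 at -0.05. Among the 16 pairs 9 had differences of the same sign, and in 0 pairs did both genes pass 1.5-fold in the same direction. Whether the genes of a pair differ together was not tested. MRPL46 and MRPS11, both members, start 320 bases apart and differed by -0.05 and 0.02.

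**Figure D5:**
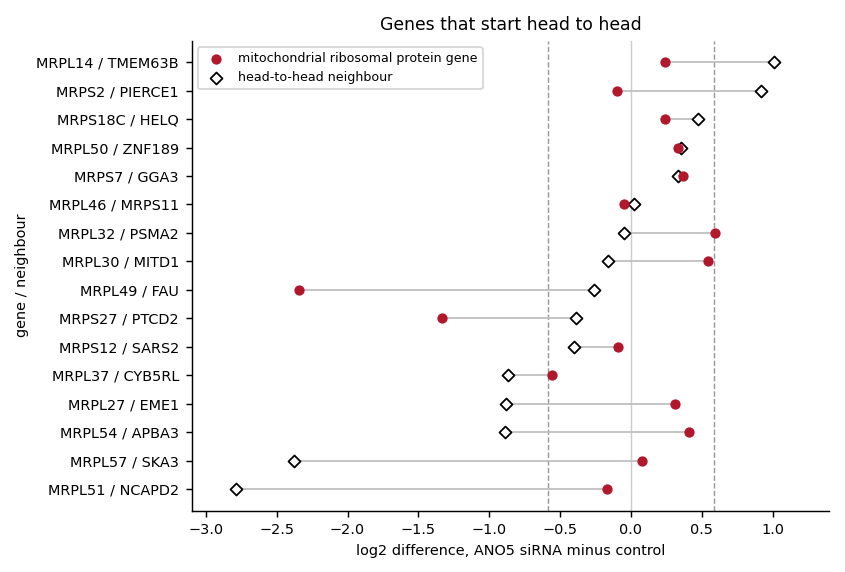
Difference between the arrays (log2, horizontal axis, ANO5 siRNA minus control) of 16 mitochondrial ribosomal protein genes (filled points) and the genes that start head to head with them (open diamonds), 1 pair per row, with dashed lines at 1.5-fold. SKA3 at -2.38 and NCAPD2 at -2.79 stand apart from MRPL57 at 0.08 and MRPL51 at -0.17, and MRPL49 at -2.34 from FAU at -0.26.

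Short motifs of factors known to act on such promoters were searched on both strands of these windows, and a gene was counted where any of its windows held the letters. CCGGAAG, a core of ETS factors such as GABPA, was found in 29 of 66 members (43.9%), beside 19% of the 11791 named genes and 12.2% of all 27305 genes with a window. AAGATGGCG, a core of YY1, was found in 13 members (19.7%), beside 3.85% of named genes and 2.14% of all genes. GCGCATGC, a core of NRF1, was found in 6 members (9.09%), beside 5.5% and 3.68%, and the E-box CACGTG of MYC and its relatives in 8 (12.1%), beside 11.5% and 8.77%. Members with and without the ETS letters had median differences of 0.19 and -0.07, and those with and without the YY1 letters -0.05 and 0.02. For the E-box these were 0.19 and -0.025, and for the NRF1 letters 0.015 and 0.01. These splits were not tested. Of the 8 lower members with a window, 2 held the ETS letters, 0 the YY1 letters, 1 the NRF1 letters and 1 the E-box. Of the 3 higher members, 1 held the ETS letters, 1 the YY1 letters, 1 the NRF1 letters and 0 the E-box. A match describes the letters in the window and shows no binding.

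The windows of MRPL32, which was higher, and MRPL17, which was lower, are shown because both hold NRF1 letters although they stood on opposite sides. Capitals here mark the motif matches. The window of MRPL32 holds the NRF1 letters from position -39 and the YY1 letters on the other strand from position -223, counted from the start of the gene. That of MRPL17 holds the NRF1 letters from positions -81 and -43, and in reverse from -79, overlapping the first of these.
MRPL32 (chr7:42932126-42932425, plus strand): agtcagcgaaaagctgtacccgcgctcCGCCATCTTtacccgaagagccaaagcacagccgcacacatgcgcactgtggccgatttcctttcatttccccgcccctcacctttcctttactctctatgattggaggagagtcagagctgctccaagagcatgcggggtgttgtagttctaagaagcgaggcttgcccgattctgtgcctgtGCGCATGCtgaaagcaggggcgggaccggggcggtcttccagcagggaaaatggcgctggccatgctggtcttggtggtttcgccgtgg
MRPL17 (chr11:6683291-6683590, minus strand): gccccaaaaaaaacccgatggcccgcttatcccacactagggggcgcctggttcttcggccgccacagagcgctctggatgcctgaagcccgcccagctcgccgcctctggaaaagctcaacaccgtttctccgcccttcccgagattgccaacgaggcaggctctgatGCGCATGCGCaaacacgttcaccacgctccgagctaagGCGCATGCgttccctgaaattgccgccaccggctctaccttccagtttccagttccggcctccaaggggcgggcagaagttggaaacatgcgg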

How the data were processed

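RNA of NUGC4 cells given ANO5 siRNA and of NUGC4 cells given control siRNA was measured on 1 array each. The deposited table holds 17345 transcript clusters with values between 2.13 and 18.15, read as log2 because of this range. On the authors' scale, background correction, probe summary, normalization and genome build, nothing is stated in the sources used here. Agilent Feature Extraction 12.0.3.1 appears in the submitters' processing notes, although the cluster identifiers have another form. Array medians were 7.68 (ANO5 siRNA) and 7.69 (control siRNA), and precision is limited by the number of arrays. Platform annotation named 14544 clusters with 1 symbol, 0 with several, and left 2801 unnamed. Of genes with several clusters the cluster with the highest mean was used. All 74 members carried current RefSeq symbols. The named genes were all members past 1.5-fold, the members with the smallest differences and a few fixed by role. From each related list up to 3 each way were named, except that all 4 lower nuclear regulators were. MRPL45, also fixed by role, was not among the 74 members and was not analysed here. Ribosome places, descent and lists were set by hand from general knowledge. Members and lists were chosen with earlier results of these data known; chromosome, neighbour and level-range groupings were added after the values were seen. The script for counts and medians was tested on simulated data. Alternatives were 3 other scalings (75th percentiles, quantile, loess with span 0.4), a pseudocount of 16, cluster choice, a level filter, subunit assignment, a 2-fold threshold and means. Python 3.11.15, numpy 2.4.6, pandas 2.3.3, statsmodels 0.14.6 and matplotlib 3.10.9 were used.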

Additional observations from a re-analysis of the deposited data

How the results depend on the processing

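No paired analysis was possible because each group holds 1 array. The median over the large subunit genes stayed above that over the small subunit genes under all alternatives run, by 0.079 (means in place of medians) to 0.19. Equal 75th percentiles shift every gene by the same value, so the gap could not change there. The sign of the large subunit value itself did not hold: it was 0.10 as reported, -0.016 after loess and -0.037 as a mean. The mean over all members was -0.066, beside the median of 0.05. The count of lower members was 9 as reported, 11 with equal 75th percentiles, 12 after quantile normalization and 16 after loess, and that of higher members was 3 or 2. As shares, 12.2%, 14.9%, 16.2% and 21.6% of the members were then lower, beside 16.6%, 17.1%, 16.8% and 18.0% of all named genes. At 2-fold, 3 were lower and 1 higher, because the threshold itself changed. Of the 74 members, 71, 70 and 66 kept their call under these 3 scalings. The calls that moved were those of MRPL32, which was lost, and of MRPS10, MRPS16, MRPL37, MRPL16, MRPL24, MRPS15 and MRPS34, which became lower under 1 or more of them. The pseudocount changed no call. The level filter removed 0 members, the choice of cluster and the removal of pseudogene and antisense symbols could not bear on members, and moving MRPS18A and MRPS30 to the large subunit left both medians at 0.10 and -0.09. No detection call was used, so a low value cannot be told from background.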
